A study of Caenorhabditis elegans with 21 samples.

Results

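The 10 loci described here encode enzymes that move carbon between fat, sugar, alcohol and storage compounds in Caenorhabditis elegans: icl-1, sodh-1, sodh-2, pck-1, pck-2, gpdh-1, gpdh-2, tps-1, tps-2 and gsy-1. They were taken by gene name from the 33886 loci of the count table. The names were chosen with earlier results of these data known. All 10 were detected in every library, and all 10 passed the filter on low counts that left 12091 loci for testing.

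The glyoxylate cycle lets worms turn the acetyl units of fat into four-carbon acids, and phosphoenolpyruvate carboxykinase then feeds those acids into gluconeogenesis. The sugar made in this way can be stored as glycogen, joined into the disaccharide trehalose, or reduced through glycerol 3-phosphate to glycerol, which worms accumulate against osmotic stress. DAF-2 is the worm insulin/IGF-1 receptor, and lowering its activity releases the FoxO transcription factor DAF-16, which is made as several isoforms from 1 gene.

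RNA came from whole animals on the first day of adulthood, with 3 libraries for each of 7 genotypes and 21 in all. N2 is the wild type, and the other 6 genotypes all carried the reduced-function receptor mutation daf-2(e1370), which is called daf-2 below where it stands alone. The 5 double mutants added daf-16(mu86), a null mutation, daf-16(mg54), a mutation of the a and f isoforms, daf-16(tm5030) or daf-16(tm5032), which are independent mutations of the a isoform, or daf-16(tm6659), a mutation of the f isoform, and they are named below by the daf-16 allele. Per the labels, animals of every genotype developed at 15 °C to the fourth larval stage and then spent 20 to 24 hours at 20 °C, and plates with males were not used. The mutations acted in all tissues. Each daf-16 allele rests on 1 strain, and only mutation of the a isoform alone was represented by 2 alleles. The labels do not say whether the libraries of a genotype came from separate cultures, so the p-values measure the spread between these libraries.

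Libraries held 30384772 to 47170645 fragments assigned to loci. Levels are given as counts-per-million (CPM) after TMM scaling, and changes as log2 fold changes with their standard errors (SE). A locus is called changed at an edgeR adjusted p under 0.05. In whole animals a lower level can come from fewer cells of a type or from less RNA per cell, and these cannot be told apart. The daf-16 locus stood at 163 ± 18.6 CPM in daf-2, 154 ± 11.7 in mu86, 94.2 ± 0.212 in mg54, 144 ± 11.1 in tm5030, 165 ± 13.7 in tm5032 and 57.7 ± 11 in tm6659 (mean ± SD, n = 3). A count over the whole locus pools the isoforms, so for mu86, tm5030 and tm5032, which lie near the daf-2 level, it does not check the labels.

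Per-length levels (FPKM, fragments per kilobase scaled to the library) put the 10 loci far apart in daf-2. The FPKM was 688 ± 124 for pck-2, 189.9 ± 42.4 for gpdh-2, 152 ± 64.3 for icl-1, 130.5 ± 3.02 for sodh-1, 127 ± 37 for gsy-1 and 104 ± 10.1 for pck-1 (mean ± SD, n = 3). It was 32.8 ± 11.9 for the tps-2 locus, 26.3 ± 3.21 for sodh-2, 9.21 ± 2.12 for the tps-1 locus and 0.439 ± 0.135 for gpdh-1. The cytosolic glycerol 3-phosphate dehydrogenases gpdh-1 and gpdh-2 were thus the lowest and the second highest of the 10 on this scale.

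**Figure D1:**
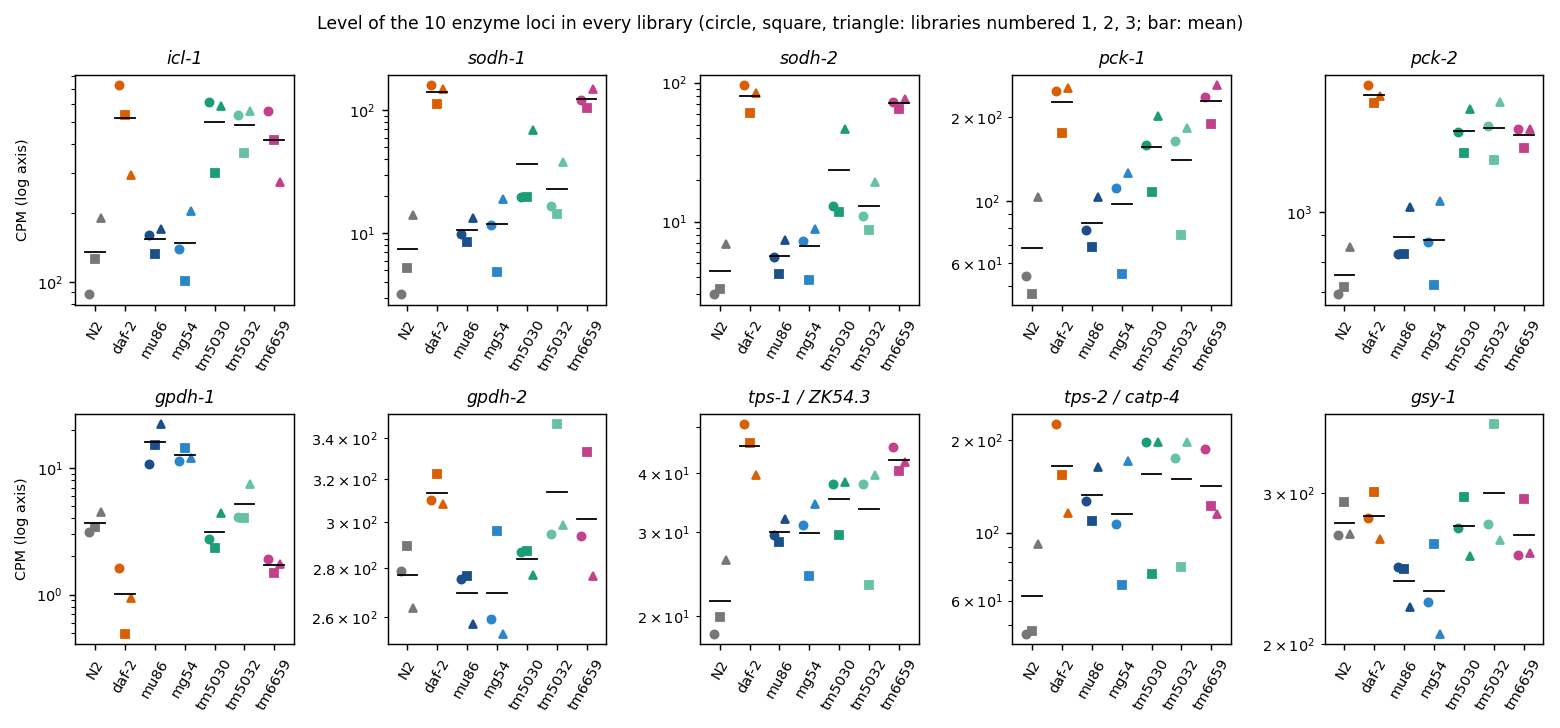
Level of each of the 10 loci in CPM (log axis) by genotype, with 1 point per library (circle, square and triangle for the libraries numbered 1, 2 and 3) and a bar at the mean of the 3 libraries. For sodh-1, all 3 daf-2 libraries (112 to 160.4 CPM) lie above all 3 N2 libraries (3.19 to 14.0 CPM), while gpdh-1 is lowest in daf-2 and highest in mu86.

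With the receptor mutation alone, 8 of the 10 loci were called changed against N2. The 7 that were higher were icl-1, sodh-1, sodh-2, pck-1, pck-2, tps-1 and tps-2, gpdh-1 was lower, and gpdh-2 and gsy-1 did not pass the test. Over all 12091 loci tested, 16.7% were called in this comparison, 10.9% higher and 5.84% lower. The median log2 change was 1.29 over the 10 loci and 0.08 over all loci. With upper-quartile scaling the calls over all loci split into 1243 higher and 1221 lower, against 1312 and 706 with TMM.

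Loss of daf-16 function in the daf-2 background moved 6 of the 10 loci the opposite way. In mu86 against daf-2, icl-1, sodh-1, sodh-2, pck-1 and pck-2 were lower and gpdh-1 was higher, where 10.3% of all loci were called, 4.13% higher and 6.16% lower. In mg54 against daf-2 the names in each direction were those called in mu86, where 9.35% of all loci were called, 3.77% higher and 5.57% lower. The median over the 10 loci was -0.76 in mu86 and -0.77 in mg54, against -0.01 over all loci in each. These comparisons and the one with N2 all use the same daf-2 libraries, so their values are not independent of each other.

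In the daf-16a mutants the picture differed by locus. No locus of the 10 was called in tm5030 against daf-2 by edgeR, where 0.91% of all loci were called, 0.331% higher and 0.579% lower. At an unadjusted p under 0.05 there were 3 of 10, given here without a matching share of all loci. DESeq2 called 3 of the 10 and 283 of 12091 loci, and limma-voom 2 and 141. With a replicate block by library number, edgeR called gpdh-1, sodh-1 and sodh-2, and 3.76% of all loci. In tm5032 against daf-2, sodh-1 and sodh-2 were lower and gpdh-1 was higher, where 1.04% of all loci were called, 0.488% higher and 0.554% lower. The daf-16a alleles were not called apart at any of the 10 loci by edgeR, with 0 of 10 at an unadjusted p under 0.05 and 0 by DESeq2 and limma-voom, where 0.0248% of all loci were called, 0.0165% higher and 0.00827% lower.

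In the daf-16f mutant tm6659 no locus of the 10 was called against daf-2 by edgeR. The count was also 0 at an unadjusted p under 0.05, by DESeq2 and by limma-voom, and 0.174% of all loci were called, 0.0414% higher and 0.132% lower. Set directly against tm6659, the mean of the daf-16a mutants was lower for sodh-1 and sodh-2. In this comparison 2.44% of all loci were called, 1.17% higher and 1.27% lower. DESeq2 called 3 of the 10 and 573 of 12091 loci, and limma-voom 2 and 389. The plot of log2 changes shows sodh-1, sodh-2 and gpdh-1 lying farthest from 0 in tm5030 and tm5032. All 10 loci lie between -0.31 and 0.75 in tm6659.

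**Figure D2:**
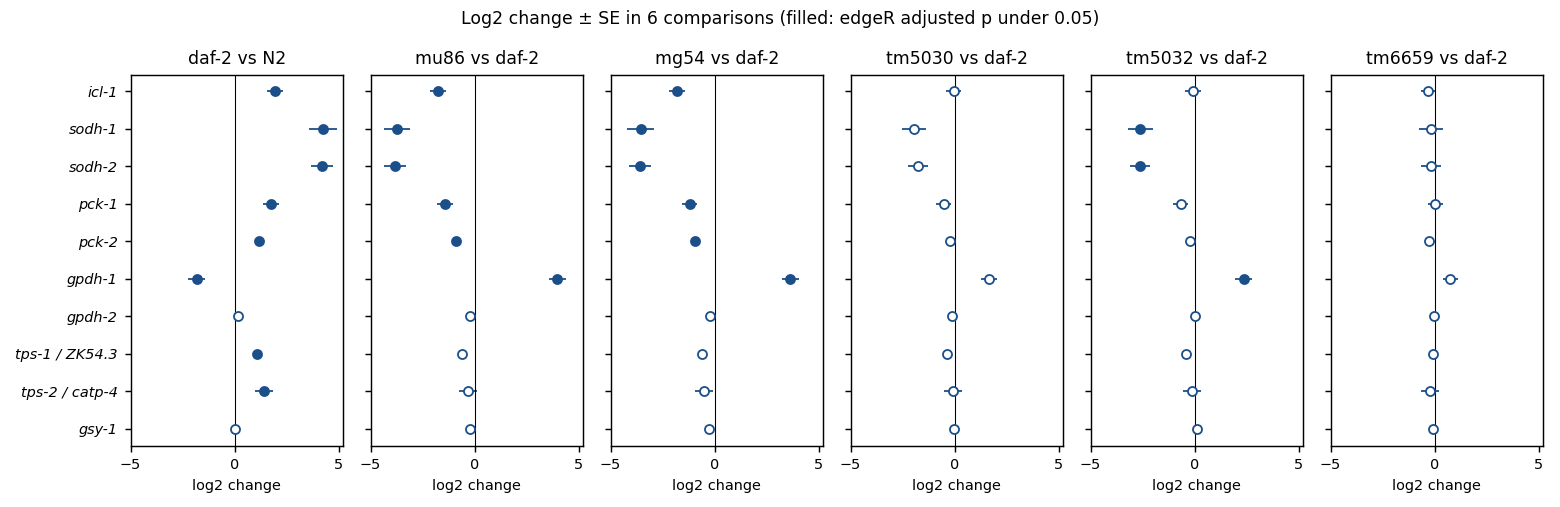
Log2 change with its SE (x axis) for each of the 10 loci (y axis) in 6 comparisons, filled where the edgeR adjusted p is under 0.05. In daf-2 against N2 the values run from -1.84 for gpdh-1 to 4.23 for sodh-1, and in tm6659 against daf-2 no point is filled.

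The first enzyme of the route from fat to sugar is ICL-1, which joins isocitrate lyase and malate synthase, both glyoxylate cycle steps, in 1 protein. Its gene lies on chromosome V from 724332 to 728004 on the minus strand (WBcel235, by the Ensembl annotation) and its locus holds no other gene. The N2 libraries held 88.3, 126 and 191 CPM and the daf-2 libraries 727, 538 and 292. Every daf-2 library was above every N2 library, but within daf-2 the highest library was 2.49 times the lowest.

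In daf-2 against N2, icl-1 rose by a log2 change of 1.94 ± 0.38 (adjusted p = 0.00192, edgeR), a 3.85-fold difference. The mu86 libraries held 159.9, 133 and 171 CPM and the mg54 libraries 139, 101 and 203, all of them below the lowest daf-2 library. The change against daf-2 was -1.75 ± 0.38 in mu86 (adjusted p = 0.00592) and -1.81 ± 0.38 in mg54 (adjusted p = 0.00517). Both ranges overlapped that of N2, and mu86 against N2 gave 0.20 ± 0.37 (adjusted p = 0.692).

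In the isoform mutants icl-1 lay near its daf-2 level. The tm5030 libraries held 611, 299 and 587 CPM, the tm5032 libraries 536, 367 and 558, and the tm6659 libraries 560.4, 418 and 275. All 9 overlapped the daf-2 range or lay just below it, and all 9 exceeded every mu86 and mg54 library. The log2 change against daf-2 was -0.06 ± 0.37 in tm5030, -0.09 ± 0.37 in tm5032 and -0.31 ± 0.37 in tm6659, none of them called, and the sign of each turned when the daf-2 library numbered 1 was left out (to 0.31, 0.26 and 0.03).

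To set the genotypes on 1 axis, each library was placed between the daf-2 mean, set to 0, and the mu86 mean, set to 1, on the log2 CPM scale. On this axis icl-1 averaged 0.02 in tm5030, 0.01 in tm5032, 0.17 in tm6659 and 1.07 in mg54. For icl-1, the mg54 change departed by -1.42 ± 0.50 from the daf-16a change (mean of both alleles) and the tm6659 change added together. The difference did not pass the test across all loci (adjusted p = 0.548, unadjusted p = 0.011). Of the 10 loci none was called in this test of additivity by edgeR, DESeq2 or limma-voom. An unadjusted p under 0.05 was found for 2 of 10, given here without a matching share of all loci. By edgeR 0.438% of all loci were called, 0.0579% higher and 0.38% lower. With a replicate block by library number, edgeR called pck-2, and 1.27% of all loci.

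**Figure D3:**
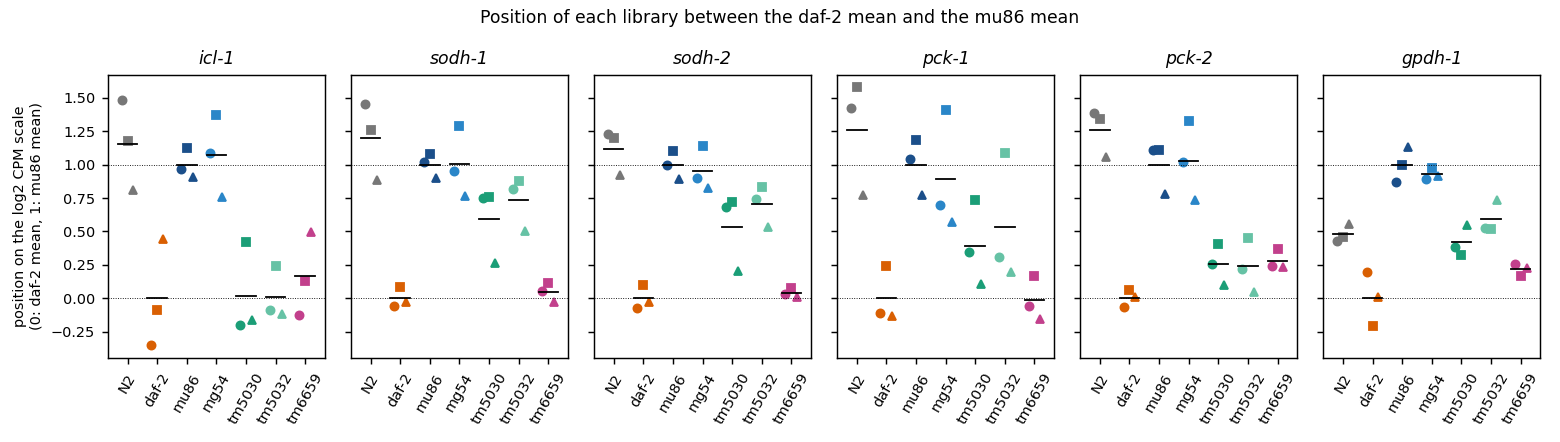
Position of each library (y axis) for the 6 loci called in mu86 against daf-2, on an axis where 0 is the daf-2 mean and 1 the mu86 mean of log2 CPM, by genotype, with 1 point per library (circle, square and triangle for libraries 1, 2 and 3) and a bar at the mean. The values at 0 and 1 are set by construction. For icl-1 the tm5030 and tm5032 means lie at 0.02 and 0.01, and for sodh-1 at 0.59 and 0.73.

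Next to these stand sodh-1 and sodh-2, neighbouring genes for alcohol dehydrogenases of the sorbitol dehydrogenase family, of which SODH-1 oxidises ethanol and other short alcohols. On chromosome V, sodh-1 (named adh-1 in the current annotation) runs from 11888248 to 11889650 on the plus strand and sodh-2 from 11889581 to 11891243 on the minus strand, so their ends overlap by 70 bases. Their counts carried fractions that added up to whole fragments within 0.06 in 21 of 21 libraries, so fragments were divided between them, and sodh-1 received 51.6% to 68.2% of the pair's fragments. Per length the sodh-1 level was the higher in daf-2, at the 130.5 and 26.3 FPKM given above.

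They changed more than any other of the 10 in daf-2 against N2. The N2 libraries held 3.19, 5.25 and 14.0 CPM of sodh-1 and the daf-2 libraries 160.4, 112 and 149.8. For sodh-2 the N2 libraries held 3.00, 3.27 and 6.87 CPM and the daf-2 libraries 96.2, 60.7 and 84.2. No N2 library came near the daf-2 range for either gene. The log2 change was 4.23 ± 0.65 for sodh-1 (adjusted p = 0.000246) and 4.20 ± 0.54 for sodh-2 (adjusted p = 4.64e-05), or 18.8-fold and 18.3-fold.

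Both genes fell back in the null and a/f mutants. The mu86 libraries held 9.90, 8.43 and 13.4 CPM of sodh-1 and the mg54 libraries 11.8, 4.87 and 19.0, within or close to the N2 range. The sodh-1 change against daf-2 was -3.73 ± 0.64 in mu86 (adjusted p = 0.0008) and -3.56 ± 0.63 in mg54 (adjusted p = 0.00128). For sodh-2 it was -3.82 ± 0.53 in mu86 (adjusted p = 0.000123) and -3.59 ± 0.52 in mg54 (adjusted p = 0.000238).

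The isoform mutants split at this pair. In tm5030 the libraries held 19.9, 19.6 and 69.7 CPM of sodh-1, and in tm5032 16.7, 14.4 and 37.7. In tm6659 they held 120.4, 104 and 148. Every daf-16a library lay below every daf-2 and every tm6659 library, the tm6659 range overlapped that of daf-2, and the third library stood apart as the highest in both daf-16a genotypes.

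In tm5032 against daf-2 the change was -2.62 ± 0.60 for sodh-1 (adjusted p = 0.0474) and -2.63 ± 0.50 for sodh-2 (adjusted p = 0.0144). The first of these calls was lost when any of 14 of the 21 libraries was left out, with an adjusted p of 0.0531 to 0.241. Those 14 were library 2 of N2, library 1 of mg54 and all 3 libraries of daf-2, mu86, tm5032 and tm6659. The sodh-2 call was lost without daf-2 library 1 (adjusted p = 0.0597), tm5032 library 1 (0.0902) or tm5032 library 2 (0.0648). In tm5030 the change was -1.95 ± 0.59 for sodh-1 (adjusted p = 0.174) and -1.77 ± 0.48 for sodh-2 (adjusted p = 0.122), and without tm5030 library 3 the sodh-2 value was -2.66 (adjusted p = 0.00761). In tm6659 it was -0.18 ± 0.57 for sodh-1 and -0.17 ± 0.47 for sodh-2 (adjusted p = 1 for each).

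The direct comparison of the daf-16a mean with tm6659 gave -2.10 ± 0.47 for sodh-1 (adjusted p = 0.0233) and -2.03 ± 0.39 for sodh-2 (adjusted p = 0.00914), or 4.3-fold and 4.08-fold lower with the a isoform mutated. The sodh-1 call was lost without library 1 or 2 of tm5030 (adjusted p = 0.0575 and 0.05), library 1 of tm5032 (0.0629) or any 1 of the tm6659 libraries (0.0908, 0.0665 and 0.107). The summed CPM of 7 intestine markers was also separate in these groups, at 44535 to 56968 in the 6 daf-16a libraries and 36550 to 44111 in tm6659. The mu86 and mg54 libraries, at 48844 to 50998 and 49469 to 50277, also lay above tm6659. The part of the marker sum in the difference was not tested. With the fragments of sodh-1 and sodh-2 summed before the fit, the daf-16a mean against tm6659 was -2.07 ± 0.44 (adjusted p = 0.0162). The summed change was -2.62 ± 0.56 in tm5032 against daf-2 (adjusted p = 0.0311). On the axis from daf-2 to mu86, sodh-1 averaged 0.59 in tm5030, 0.73 in tm5032 and 0.05 in tm6659, and sodh-2 0.53, 0.70 and 0.04.

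Phosphoenolpyruvate carboxykinase, which commits carbon to gluconeogenesis, is encoded by pck-1 (chromosome III from 62888 to 66260, minus strand) and pck-2 (chromosome I from 7866136 to 7872100, plus strand). The pck-2 gene was the more abundant, at 1764, 1625 and 1676 CPM in daf-2 against 692, 714 and 855 in N2. Its 2 groups did not overlap and the spread within each was small. The log2 change was 1.16 ± 0.13 (adjusted p = 1.38e-05), a 2.24-fold difference.

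In mu86 the libraries held 827, 828 and 1023 CPM of pck-2 and in mg54 876, 719.7 and 1052, all below the daf-2 range. The change against daf-2 was -0.92 ± 0.13 in mu86 (adjusted p = 0.000166) and -0.94 ± 0.13 in mg54 (adjusted p = 0.000175). The isoform mutants lay in between, with means ± SD of 1439 ± 141 CPM in tm5030, 1455 ± 187 in tm5032 and 1409 ± 67.4 in tm6659 (n = 3 each). Their changes against daf-2 were -0.23, -0.21 and -0.26, each with an SE of 0.13 and none of them called. On the axis from daf-2 to mu86 they stood at 0.25, 0.24 and 0.28, and the departure of mg54 from the sum of the isoform changes was -0.45 ± 0.17 (adjusted p = 0.723).

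For pck-1 the N2 libraries held 54.2, 46.5 and 104 CPM and the daf-2 libraries 248, 176 and 254. The groups did not overlap, and the log2 change was 1.73 ± 0.37 (adjusted p = 0.00388), a 3.32-fold difference. The mu86 libraries held 79.2, 68.8 and 104 CPM and the mg54 libraries 111, 55.3 and 127, all below daf-2. The change was -1.43 ± 0.37 in mu86 (adjusted p = 0.0186) and -1.21 ± 0.37 in mg54 (adjusted p = 0.0496).

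The mu86 call for pck-1 was lost without library 1 or 3 of daf-2 (adjusted p = 0.0728 and 0.0662) or library 1 or 2 of mu86 (0.0681 and 0.0862). The mg54 call was lost when any of 15 of the 21 libraries was left out, with an adjusted p of 0.0528 to 0.171. Those 15 were library 1 of N2, tm5030 and tm5032 and all 3 libraries of daf-2, mu86, mg54 and tm6659. In the isoform mutants pck-1 averaged 155.9 ± 46.9 CPM in tm5030, 141 ± 57.3 in tm5032 and 228 ± 36.4 in tm6659. The changes against daf-2 were -0.54 ± 0.37, -0.68 ± 0.37 and 0.01 ± 0.36, none called, and the daf-16a mean against tm6659 was -0.62 ± 0.31 (adjusted p = 0.471).

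Glycerol 3-phosphate dehydrogenase makes the precursor of glycerol, and gpdh-1 is the gene of the pair that hypertonic stress is known to induce. It lies on chromosome I from 14075837 to 14078211 on the plus strand and overlaps gadr-6 on the other strand by 73 bases. It was the 1 locus of the 10 that moved against the rest, with 3.127, 3.402 and 4.46 CPM in N2, 1.63, 0.491 and 0.934 in daf-2 and 10.7, 15.1 and 22.1 in mu86. These 3 groups did not overlap, and the lowest library held 15.2 fragments of gpdh-1.

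In daf-2 against N2 gpdh-1 fell, with a log2 change of -1.84 ± 0.39 (adjusted p = 0.00309). In mu86 against daf-2 it rose by 3.96 ± 0.41 (adjusted p = 7.28e-06), and in mg54, with 11.33, 14.4 and 12.1 CPM, by 3.62 ± 0.41 (adjusted p = 1.79e-05). It was also the 1 locus of the 10 called in mu86 against N2, at 2.13 ± 0.38 (adjusted p = 0.0102), where 1.52% of all loci were called, 1.35% higher and 0.174% lower. That call was lost without N2 library 1 (adjusted p = 0.0919), N2 library 2 (0.0884) or mu86 library 3 (0.0595).

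The daf-16a mutants lay between daf-2 and mu86, with 2.76, 2.32 and 4.37 CPM of gpdh-1 in tm5030 and 4.11, 4.02 and 7.42 in tm5032. All 6 libraries exceeded all 3 daf-2 libraries. The change was 1.62 ± 0.38 in tm5030 (adjusted p = 0.062) and 2.34 ± 0.39 in tm5032 (adjusted p = 0.00523). The tm5030 value passed the threshold without daf-2 library 1 (adjusted p = 0.0221), mu86 library 3 (0.0473), tm5032 library 2 (0.0478) or tm5032 library 3 (0.0415). In tm6659 the libraries held 1.93, 1.49 and 1.75 CPM, overlapping daf-2, for a change of 0.75 ± 0.38 (adjusted p = 1). The daf-16a mean against tm6659 was 1.23 ± 0.34 for gpdh-1 (edgeR adjusted p = 0.0688). That value passed without daf-2 library 1 (adjusted p = 0.0389) or daf-2 library 2 (0.0347).

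Whether these calls depend on how fragments were divided with the neighbouring fbxb-93/gadr-6 locus could not be settled. The gpdh-1 count and that of its neighbour summed to whole fragments within 0.06 in 21 of 21 libraries, and the neighbour received 248 to 591 fragments against 15.2 to 674 for gpdh-1. When both were summed before the fit, an alternative added after seeing the data, the change was -0.45 ± 0.16 in daf-2 against N2 (adjusted p = 0.0647) and 0.48 ± 0.16 in tm5032 against daf-2 (adjusted p = 0.277). Neither was called for the sum. In daf-2 the neighbour held 10.0 to 12.8 CPM against 0.491 to 1.63 for gpdh-1, so its own fragments dilute a gpdh-1 change. The sum therefore cannot show whether the gpdh-1 calls depend on the division.

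The rise in the null and a/f mutants was called with the sum as well, at 1.13 ± 0.16 in mu86 (adjusted p = 0.000158) and 0.94 ± 0.16 in mg54 (adjusted p = 0.000918). The sum in mu86 against N2 was 0.68 ± 0.16 (adjusted p = 0.0437). The sum ran from 23.9 to 30.3 CPM in mu86 and from 11.7 to 13.3 in daf-2, with no overlap. The sum contains the neighbour's own fragments, so it gives the direction for the pair and not the size of the gpdh-1 change.

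**Figure D4:**
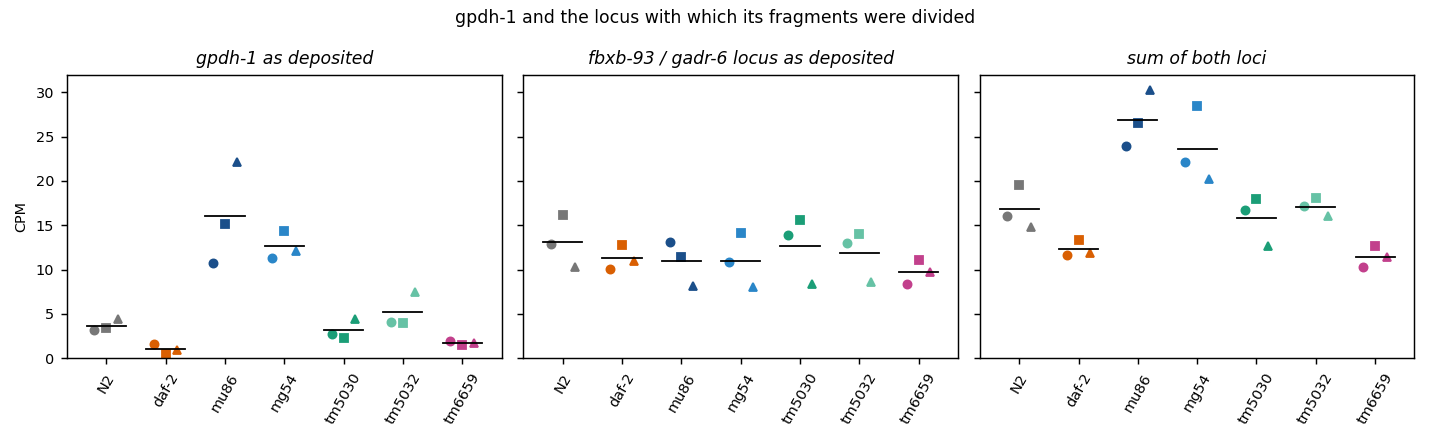
CPM of gpdh-1 (left), of the fbxb-93/gadr-6 locus with which its fragments were divided (middle) and of both summed (right), by genotype, with 1 point per library (circle, square and triangle for libraries 1, 2 and 3) and a bar at the mean. The summed level lies between 23.9 and 30.3 CPM in mu86 and between 11.7 and 13.3 CPM in daf-2.

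The second glycerol 3-phosphate dehydrogenase gene, gpdh-2 (chromosome III from 9854074 to 9859183, minus strand), was nearly level over all genotypes. Its 21 libraries ran from 254 CPM in mg54 to 347 CPM in tm5032. The log2 change was 0.18 ± 0.08 in daf-2 against N2 (adjusted p = 0.133), -0.22 ± 0.08 in mu86 (adjusted p = 0.0948) and -0.22 ± 0.08 in mg54 (adjusted p = 0.101). It shared fragments with the K11H3.3 locus, and with both summed, also after seeing the data, these became 0.22 ± 0.06, -0.23 ± 0.06 and -0.21 ± 0.06, all called (edgeR adjusted p = 0.0108, 0.0143 and 0.0248). The sum contains the 3813 to 6677 fragments per library of the K11H3.3 locus, so its calls cannot be assigned to gpdh-2.

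Trehalose is made by trehalose 6-phosphate synthase, the product of tps-1 and tps-2, and serves worms as a sugar store and stress protectant. In the count table tps-1 (chromosome X from 17467121 to 17474534, minus strand) was merged with ZK54.3 and tps-2 (chromosome II from 14600902 to 14610554, plus strand) with catp-4. A change of either locus therefore cannot be assigned to the synthase gene alone.

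The tps-1 locus held 18.3, 19.9 and 26.2 CPM in N2 and 50.6, 46.2 and 39.6 in daf-2, with no overlap. It rose by 1.08 ± 0.19 (adjusted p = 0.000805). In mu86 it held 29.5, 28.5 and 32.04 CPM and in mg54 31.1, 24.31 and 34.3, all below daf-2 and most above N2. The change against daf-2 was -0.60 ± 0.19 in each, just outside the threshold (adjusted p = 0.0555 in mu86 and 0.0567 in mg54), and it was called under 6 of 34 alternatives in mu86 and 4 of 34 in mg54. It passed with RLE scaling (adjusted p = 0.0468 and 0.0493), with DESeq2 (0.0152 and 0.0154) and without tm5032 library 2 (0.0207 in each). With a replicate block the adjusted p was 0.00877 in mu86 and 0.00804 in mg54 (edgeR). In mu86 it also passed with limma-voom (adjusted p = 0.0483) and with the compared genotypes only (0.0482).

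The tps-2 locus held 46.8, 47.9 and 91.7 CPM in N2 and 225, 154 and 116 in daf-2. The groups did not overlap, and the rise was 1.41 ± 0.44 (adjusted p = 0.0366). That call was lost without N2 library 1 (adjusted p = 0.147), N2 library 2 (0.16), daf-2 library 1 (0.183), daf-2 library 2 (0.0635), mg54 library 1 (0.0536) or tm6659 library 3 (0.0504).

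In the null and a/f mutants the tps-2 locus was not called against daf-2. It averaged 133 ± 27.7 CPM in mu86 and 115.01 ± 52.4 in mg54, and the change against daf-2 was -0.31 ± 0.43 (adjusted p = 0.806) and -0.52 ± 0.43 (adjusted p = 0.62). In mu86 against N2 it was 1.10 ± 0.44 (adjusted p = 0.165). All 3 mu86 libraries, at 126, 109 and 163 CPM, exceeded all 3 N2 libraries.

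Glycogen synthase, encoded by gsy-1 (chromosome II from 12866446 to 12878121, minus strand), draws on the same glucose pool. In daf-2 it was not called against N2, with 268, 293 and 268 CPM in N2 and 280.5, 301 and 265 in daf-2. The change was 0.03 ± 0.11 (adjusted p = 0.871), and its sign turned with RLE scaling and when single libraries were left out. In mu86 it was -0.25 ± 0.11 (adjusted p = 0.201) and in mg54 -0.29 ± 0.11 (adjusted p = 0.132).

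The isoform mutants were not called at these 4 loci in any comparison with daf-2. The tps-1 locus averaged 35.3 ± 4.97 CPM in tm5030, 33.6 ± 8.99 in tm5032 and 42.6 ± 2.54 in tm6659, with the tm5030 libraries all below the lowest daf-2 library. The tps-2 locus averaged 155.6 ± 71.2, 149.6 ± 63.7 and 141 ± 39.7 CPM in the same order. For gsy-1 the means were 274 ± 21.8, 300.3 ± 52.6 and 268 ± 23.6 CPM, and for gpdh-2 284 ± 5.79, 313.5 ± 29.2 and 301 ± 28.9 (mean ± SD, n = 3).

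Among all 10 loci, mg54 and mu86 were not called apart by edgeR. The count was also 0 at an unadjusted p under 0.05, by DESeq2 and by limma-voom, and 0.0331% of all loci were called, 0.00827% higher and 0.0248% lower. The differences ran from -0.34 ± 0.36 for gpdh-1 to 0.23 ± 0.48 for sodh-2, with SEs of up to 0.58.

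The order of the genotypes by mean CPM was steepest for sodh-1. It went from daf-2 (141 CPM) and tm6659 (124), which overlapped, to tm5030 (36.4) and tm5032 (22.9), then mg54 (11.9), mu86 (10.6) and N2 (7.48). The single gap without overlap between neighbours lay between tm6659 and tm5030. For icl-1 and pck-2 that gap lay elsewhere, between tm6659 and mu86, with all 4 of daf-2, tm5030, tm5032 and tm6659 above it. For pck-1, gpdh-2 and the tps-2 locus every neighbour overlapped the next.

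Genes of these pathways were taken from 7 lists drawn up by function, which include the 10 loci described above. The list counts therefore repeat the calls of those loci and are not independent of them. Called in daf-2 against N2 were pck-1 and pck-2 (gluconeogenesis), tps-1 and tps-2 (trehalose), gpdh-1 (glycerol), icl-1 (glyoxylate) and sodh-1 and sodh-2 (dehydrogenases). The glycerol locus called lower there, and higher in mu86 against daf-2, is gpdh-1. Over all loci, 10.9% were higher and 5.84% lower in daf-2 against N2, and 4.13% and 6.16% in mu86 against daf-2. The counts of every list below are to be read against these shares. Of 15 loci for gluconeogenesis and the reversible steps of glycolysis, 8 were higher and 0 lower in daf-2 against N2, and 0 were higher and 7 lower in mu86 against daf-2. The list median was 0.31 and -0.27, against 0.08 and -0.01 over all loci. Besides pck-1 and pck-2, fbp-1, which encodes fructose 1,6-bisphosphatase, rose by 0.60 ± 0.08 (adjusted p = 6.01e-05) and fell in mu86 (-0.42 ± 0.08, adjusted p = 0.00223). The locus of pgk-1, for phosphoglycerate kinase, which also holds coq-4, changed by 0.40 ± 0.05 (adjusted p = 5.69e-05) and -0.37 ± 0.05 (adjusted p = 0.000149). That of ipgm-1, for phosphoglycerate mutase, which also holds F57B10.4, changed by 0.22 ± 0.05 (adjusted p = 0.00307) and -0.27 ± 0.05 (adjusted p = 0.000917).

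Of 8 trehalose loci, 4 were higher and 1 lower in daf-2 against N2, and 1 was higher and 1 lower in mu86 against daf-2. The list median was 0.18 and -0.05. The trehalase genes, whose products split trehalose, went in both directions. In daf-2 against N2, tre-4 rose by 1.02 ± 0.14 (adjusted p = 0.000109) and tre-2 fell (-0.47 ± 0.12, adjusted p = 0.0113). In mu86 against daf-2, tre-4 fell (-0.98 ± 0.14, adjusted p = 0.000205) and tre-2 rose by 0.81 ± 0.12 (adjusted p = 0.000219). The locus of gob-1, the trehalose 6-phosphate phosphatase gene, which also holds suox-1, rose by 0.37 ± 0.09 in daf-2 (adjusted p = 0.00978).

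Of 6 loci for glycerol metabolism, 3 were higher and 1 lower in daf-2 against N2, and 1 was higher and 0 lower in mu86 against daf-2, with list medians of 0.25 and -0.19. The glycerol kinase gene R11F4.1 rose by 1.44 ± 0.36 (adjusted p = 0.0112) and gpdh-3, another glycerol 3-phosphate dehydrogenase gene, by 0.19 ± 0.05 (adjusted p = 0.0223). The gene pgph-2, for a phosphatase that releases glycerol from glycerol 3-phosphate, rose by 0.64 ± 0.19 in daf-2 against N2 (adjusted p = 0.0248). It fell in tm6659 (-1.58 ± 0.19, adjusted p = 0.000551).

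The pgph-2 mean was 40.9 CPM in daf-2, 49.05 in tm5030, 56.1 in tm5032 and 13.7 in tm6659. The daf-16a mean exceeded tm6659 by 1.94 ± 0.18 (adjusted p = 6e-06), the opposite direction to sodh-1 and sodh-2. Of 10 regulators of the osmotic response of gpdh-1 that were tested, with osm-8 too low to test, edgeR called 0 in daf-2 against N2 and 0 in mu86 against daf-2. DESeq2 and limma-voom also called 0 in each, and 1 and 0 of the 10 had an unadjusted p under 0.05.

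Of 20 loci of the glyoxylate and citric acid cycles, 3 were higher and 3 lower in daf-2 against N2, and 0 were higher and 3 lower in mu86 against daf-2. The count of 3 higher is near the share over all loci, 10.9%. The list median was -0.01 and 0.02. The aconitase gene aco-2 changed by 0.25 ± 0.05 (adjusted p = 0.00301) and -0.21 ± 0.05 (adjusted p = 0.0164), far less than icl-1. The malate dehydrogenase genes lie in merged loci, and that of mdh-1 changed by 0.20 ± 0.06 (adjusted p = 0.0232) and that of mdh-2 by -0.20 ± 0.05 (adjusted p = 0.00668) in daf-2 against N2.

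Of 16 alcohol and aldehyde dehydrogenase loci tested, with alh-2 too low to test, 6 were higher and 1 lower in daf-2 against N2, and 1 was higher and 4 lower in mu86 against daf-2. The list median was 0.15 and -0.14. Next to sodh-1 and sodh-2, the aldehyde dehydrogenase gene alh-5 rose by 1.54 ± 0.28 (adjusted p = 0.000972) and fell in mu86 (-1.46 ± 0.28, adjusted p = 0.00204). The aldehyde dehydrogenase gene alh-12 rose by 1.01 ± 0.16 (adjusted p = 0.000236).

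Of 10 glycogen loci, 1 was higher and 0 lower in daf-2 against N2, and 0 were higher and 1 lower in mu86 against daf-2. These counts are near the shares over all loci. The list medians were 0.08 and -0.16. The higher one is the locus of aagr-2, for an acid alpha-glucosidase, at 0.55 ± 0.16 (adjusted p = 0.0282), but that locus also holds the sperm gene msp-31. The lower one is gyg-2, for glycogenin, the primer of glycogen, at -0.59 ± 0.18 (adjusted p = 0.0433).

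**Figure D5:**
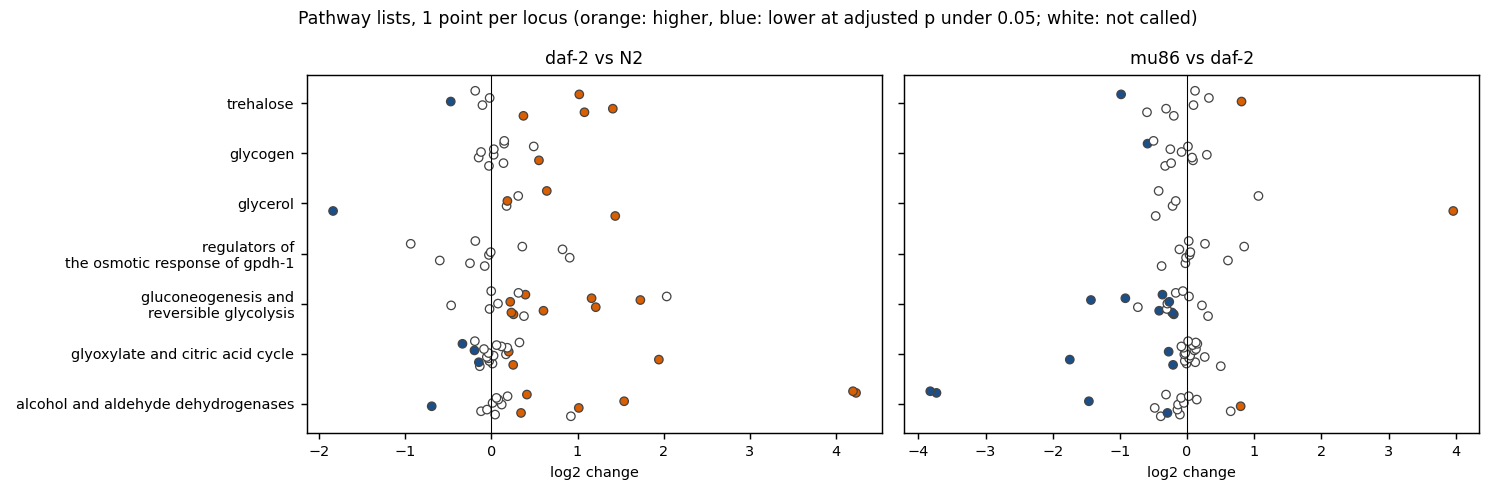
Log2 change (x axis) of every tested locus of 7 function lists (y axis, members included) in daf-2 against N2 (left) and mu86 against daf-2 (right), with 1 point per locus, orange if called higher, blue if called lower and white if not called. Of the 15 gluconeogenesis loci, 8 are called higher on the left and 7 lower on the right.

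The loci with the pattern most like that of a member were found by the mean absolute difference of centred log2 CPM over the 21 libraries, among 6612 loci of 1 protein-coding gene. For sodh-1 the nearest was sodh-2 (0.165), with which it shares fragments, and then sod-3 (0.523), a manganese superoxide dismutase gene. For sodh-2 the nearest was sod-3 (0.435). The range of sodh-1 over the libraries was 5.63 log2 units, so these differences are a small part of it.

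For icl-1 the nearest locus was C07E3.3 (0.249), for pck-1 gsnl-1 (0.13), a gelsolin-like gene, and for pck-2 ttr-25 (0.106). For gpdh-1 it was pho-8 (0.446), for gpdh-2 srp-7 (0.0613), for the tps-1 locus pfn-2 (0.102), for the tps-2 locus ptr-20 (0.147) and for gsy-1 CELE_T03F6.3 (0.0389). The gpdh-2 and gsy-1 loci hardly varied, with ranges of 0.452 and 0.81 log2 units over the 21 libraries.

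Within genotypes the levels of several members moved with the library number. Library 3 held the highest and library 2 the lowest pck-1 level in 7 of 7 genotypes. For sodh-1 and for sodh-2, library 2 was the lowest in 6 of 7 genotypes and library 3 the highest in 6 of 7, and both held together in 5 of 7. For gpdh-2 library 2 was the highest in 7 of 7. Marker genes of cell types also moved with the number. The summed CPM of 7 hypodermis markers had medians of 4082, 2762 and 6064 in libraries 1, 2 and 3, and that of 5 body wall muscle markers 3037, 1621 and 4175.

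For 12 sperm markers these medians were 613, 507 and 1149, and for 9 oocyte markers 7507, 8645 and 6226. All loci of these 4 lists were detected in every library. By genotype, the muscle markers ran from 1075 to 2417 in N2, 1621 to 3393 in daf-2 and 2506 to 4617 in mu86, the hypodermis markers from 1951 to 3755, 2392 to 4130 and 3627 to 6950, and the sperm markers from 274 to 557, 507 to 921 and 580 to 1452. The 7 intestine markers ran from 44535 to 56968 in tm5030 and from 49231 to 54769 in tm5032, above the range of 36550 to 44111 in tm6659 with no overlap, and from 36747 to 50010 in daf-2. In mu86 they ran from 48844 to 50998 and in mg54 from 49469 to 50277, also above tm6659. The intestine list includes the yolk protein genes vit-2 and vit-6, and the share of each gene in the sum was not examined. The summed CPM of 10 embryo markers, 4 of them detected in every library, ran from 3.26 to 5.69 in N2 and from 1.28 to 1.82 in daf-2, with no overlap. The part of these differences in the levels of the 10 loci was not tested.

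Without the 7 libraries numbered 1, fewer of the 10 loci were called. The number fell from 8 to 3 in daf-2 against N2, from 6 to 2 in mu86 and from 6 to 1 in mg54. Over all loci the calls fell from 2018 to 326, from 1244 to 223 and from 1130 to 180 in the same order. The loci tested were 12091 with and 12124 without those libraries. No called value changed sign.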

How the data were processed

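Whole-animal poly(A) RNA was sequenced in paired 100-cycle runs, per the labels' protocols. The submitters' processing notes name CASAVA 1.8.2, TopHat2 2.0.9 and Cufflinks 2.1.1. The build is not given in the sources used here, so positions come from an Ensembl annotation of WBcel235, by gene name. The authors deposited expected counts of fragments, 86.3% of them whole within 1e-09, and FPKM, per locus. FPKM sums per library ran from 756420 to 1816122. Loci can merge overlapping genes. Left out were 3 summary entries and 300 unnamed loci (1.06% to 1.54% of a library).

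Counts were rounded and fitted with edgeR 4.0.16 in R 4.3.3, in 1 quasi-likelihood model of 21 libraries with TMM scaling, filterByExpr and no replicate block. Common biological variation was 0.346. P-values are 2-sided and Benjamini-Hochberg adjusted over 12091 loci, and log2 CPM used a prior count of 2. The procedure was tested on simulated data.

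Alternatives were RLE and upper-quartile scaling, DESeq2 1.42.0, limma-voom (limma 3.58.1), other filters, FPKM with 1 or 0.1 added, a replicate block, only the compared genotypes, and leaving out libraries. Summing loci that divide fragments was added after seeing the data. Members, lists and the rule for named genes were chosen with earlier results of these data known: all 10 members, up to 4 called loci per list with the smallest p, and the nearest patterns. Errors of assigning fragments to loci are not in the SE.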

Additional observations from a re-analysis of the deposited data

Results flagged for a closer look

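The difference between the daf-16a mutants and the daf-16f mutant was tested directly, and 2 of the 10 loci passed by edgeR. The gpdh-1 difference of 1.23 ± 0.34 did not pass (adjusted p = 0.0688), and DESeq2 called 3 of the 10. For sodh-1 the log2 difference of the daf-16a mean from tm6659 was -2.10 and for sodh-2 it was -2.03, with all 6 daf-16a libraries below all 3 tm6659 libraries for both. The summed CPM of 7 intestine markers also did not overlap, at 44535 to 56968 over the daf-16a libraries and 36550 to 44111 in tm6659. It was also above tm6659 in mu86 (48844 to 50998) and mg54 (49469 to 50277). The part of the marker sum in the sodh-1 and sodh-2 difference was not tested. The sodh-1 and sodh-2 genes divide fragments, so their values are not independent results.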

How the results depend on the processing

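Of 2096 alternative values for 61 member results, 1892 kept both direction and side of the threshold, 107 lost a call, 50 gained one and 47 changed sign. None of the 26 called results changed sign. The labels tie no library number to a shared culture or day. Deviations of same-numbered libraries correlated above 0.1 in 57 of 63 pairs (median 0.494, lowest -0.315), against 19 of 126 differently numbered pairs (median -0.152), and 18 of 21 libraries were nearest to their own number. Since not every pair passed, the numbers were not used as pairs, and the nearness is a hint from the data, not the design. With a replicate block, 9 members were called in daf-2 against N2 (44.1% of all loci, 5330 against 2018 without the block). It called 9 members in mu86 (21.8% of all loci) and 9 in mg54 (19.0%), 8 of them lower in each, where gpdh-2, tps-1 and gsy-1 gained calls (gsy-1 adjusted p = 0.00733 and 0.00234). The members called were 3 in tm5030 (3.76% of all loci), 4 in tm5032 (3.63%) and 4 in the daf-16a mean against tm6659 (7.86%). In tm5030 the 3 were gpdh-1, sodh-1 and sodh-2, none of which was called without the block. In tm5032 and in the daf-16a mean, gpdh-1 and pck-1 were called beside sodh-1 and sodh-2. The block called 5 in mu86 against N2 (48.2%) and 1 for additivity, pck-2 (1.27%). The share in mu86 against N2 is near that of all loci.

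In daf-2 against N2, 5 members were called with FPKM with either constant added and 3 without libraries numbered 1. Over all loci FPKM gave 1102 calls with 1 added and 1125 with 0.1 added. FPKM scaling moved the median of all loci from 0.08 to -0.37 with 1 added and -0.51 with 0.1 added, and tps-1, tps-2 and pck-2 lost their calls. Without libraries numbered 1, mu86 had 2 and mg54 had 1. In tm5030 the count was 1 with RLE, 3 with DESeq2, 2 with limma-voom, 3 with each FPKM form and 2 without libraries numbered 3. Over all loci the tm5030 calls were 114 with RLE, 283 with DESeq2 and 141 with limma-voom. They were 128 and 118 with FPKM with 1 and 0.1 added, and 74 without libraries numbered 3. In tm5032 and in the daf-16a mean against tm6659 it was 0 with the compared genotypes only and without libraries numbered 1 or 2. In mu86 against N2 it was 0 with FPKM with 0.1 added, with the compared genotypes only and without libraries of any 1 number. The cause was not tested. Leaving out single libraries gave 7 to 8 members in daf-2 against N2, 5 to 7 in mu86, 5 to 7 in mg54, 0 to 1 in tm5030, 1 to 3 in tm5032, 1 to 3 for the daf-16a mean against tm6659, 0 to 1 in mu86 against N2, and 0 in the others.

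The values that changed sign were all of uncalled results. In daf-2 against N2, gpdh-2 was -0.45 and -0.46 with FPKM, and gsy-1 was -0.0517 with RLE and DESeq2, -0.59 and -0.60 with FPKM, -0.0726 without libraries numbered 1 and -0.104 to 0.0398 without single libraries. For tps-2 in mu86 it was 0.0586 without libraries numbered 1 and -0.47 to 0.0292 without single libraries. For icl-1 in tm5030 it was 0.0852 and 0.0864 with FPKM, 0.14 and 0.25 without libraries numbered 1 or 2, and -0.30 to 0.31 without single libraries. For icl-1 in tm5032 these were 0.13, 0.14, 0.18, 0.13, and -0.35 to 0.26. In tm6659, single libraries gave -0.58 to 0.0295 for icl-1, -0.31 to 0.00085 for sodh-2 and -0.11 to 0.13 for pck-1, and gpdh-1 was -0.10 when summed with its neighbour.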
